A study of Mus musculus with 20 samples.

Results

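Transforming growth factor beta (TGF-beta) and bone morphogenetic protein (BMP) pathway genes were followed across side population (SP) and main population (MP) cells sorted from mouse skeletal muscle and bone marrow. The genes were chosen by symbol, taking every probe set of a single gene whose symbol marks it as a TGF-beta, BMP, activin or growth differentiation factor ligand, a latent TGF-beta binding protein, a receptor, a Smad or an inhibitor of DNA binding (Id) protein. The rule gave 59 probe sets of 49 genes, of 12422 probe sets and 8251 named genes on the arrays. Of these, 43 probe sets of 36 genes passed the filter on low signal, of 10310 probe sets and 7295 genes that did so in all. The symbols also brought in Bmp2k, a protein kinase, and Tgfb1i1 (Hic-5), a focal adhesion protein, neither of which is a ligand.

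All cells came from adult mice of the inbred strain C57BL/10SnJ. The 4 groups were SP and MP cells of muscle and SP and MP cells of bone marrow, with 5 arrays each. SP cells are the small fraction that pumps out the DNA-binding dye Hoechst, and MP cells are those that keep it. The labels name no treatment or mutant allele, and they do not state whether the 5 samples of a group are from different animals, so a p-value reflects only how these samples vary, and that variation may be technical.

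In this pathway a secreted ligand dimer assembles type I and type II receptor kinases at the cell surface. TGF-beta and activin receptors mainly phosphorylate Smad2 and Smad3, while BMP receptors phosphorylate Smad1, Smad5 and Smad8, and both sets enter the nucleus with the shared partner Smad4. Smad6 and Smad7 block the cascade and are themselves induced by it, and the Id genes, whose products hold basic helix-loop-helix factors off DNA, are classic BMP targets. In endothelium BMP9 and BMP10 signal through the receptor Acvrl1 (Alk1) with endoglin, TGF-beta is known as a brake on blood stem cell division, and BMPs act on muscle satellite cells and fibroblasts.

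Signal is given on the arrays' linear scale after quantile normalization, and any value under the overall 25th percentile (105) was raised to that floor. Every array measures sorted cells in bulk, so fewer cells of a type and less RNA per cell cannot be told apart. Summed endothelial marker signal ran from 155632 to 189131 in muscle SP, 99673 to 121484 in muscle MP, 7454 to 14070 in bone marrow SP and 4187 to 4730 in bone marrow MP cells, with Tek and Tie1 at the floor on all bone marrow MP arrays. The fibroblast and matrix sum ran from 72789 to 123524 in muscle SP against 193552 to 288220 in muscle MP cells, and the satellite cell and myogenic sum from 2649 to 3146 against 8886 to 13756. Muscle SP arrays 4 and 5 stood apart from the other 3. Their pericyte and smooth muscle sums were 79535 and 74407 against 36335 to 42398 on the other 3, and their T and NK cell sums were 3973 and 3960 against 17963 to 53710. Results that rest on these arrays are given with and without them, and the fit without them was added after the data were seen. The GAPDH 3' to 5' log2 ratio, a sign of RNA quality, averaged 3.83 ± 0.61 in muscle SP against 2.66 ± 0.62 in muscle MP cells, and 3.72 ± 0.60 in bone marrow SP against 2.67 ± 0.72 in bone marrow MP cells (SD, n = 5 each). The part of these differences in the results that follow was not tested, apart from a fit with that ratio as a covariate.

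In muscle, SP cells had higher signal than MP cells for the BMP targets Id1 and Id3, the inhibitory Smads Smad6 and Smad7 and the ligand Bmp4, and lower signal for Id4, Bmp6 and Gdf10. These 9 called probe sets (adjusted p under 0.05 in limma) were 20.9% of the 43, where 11.7% of all probe sets tested were called. Of them 5 were higher, where 5.1% of all probe sets were, and 4 were lower, where 6.64% were. The median log2 change was 0.11 over the 43 probe sets and 0.03 over all probe sets tested.

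In bone marrow, SP cells had higher signal than MP cells for Id3, Smad6, Smad7, Smad1, Smad4 and the activin receptor Acvr2b, and lower signal for the receptor Acvrl1, the activin subunit gene Inhba, Gdf9, Bmp2k and Tgfb1i1. The 13 called probe sets were 30.2% of the 43, and 30.2% of all probe sets tested were called as well. Of these 7 were higher against a background of 15.4%, and 6 were lower against a background of 14.8%. That split was 11 higher and 5 lower without further normalization and 4 higher and 8 lower with median scaling. Over all probe sets tested, these scalings moved the median to 0.31 and -0.08. Median log2 changes were 0.04 over the 43 probe sets and 0.02 over all.

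**Figure D1:**
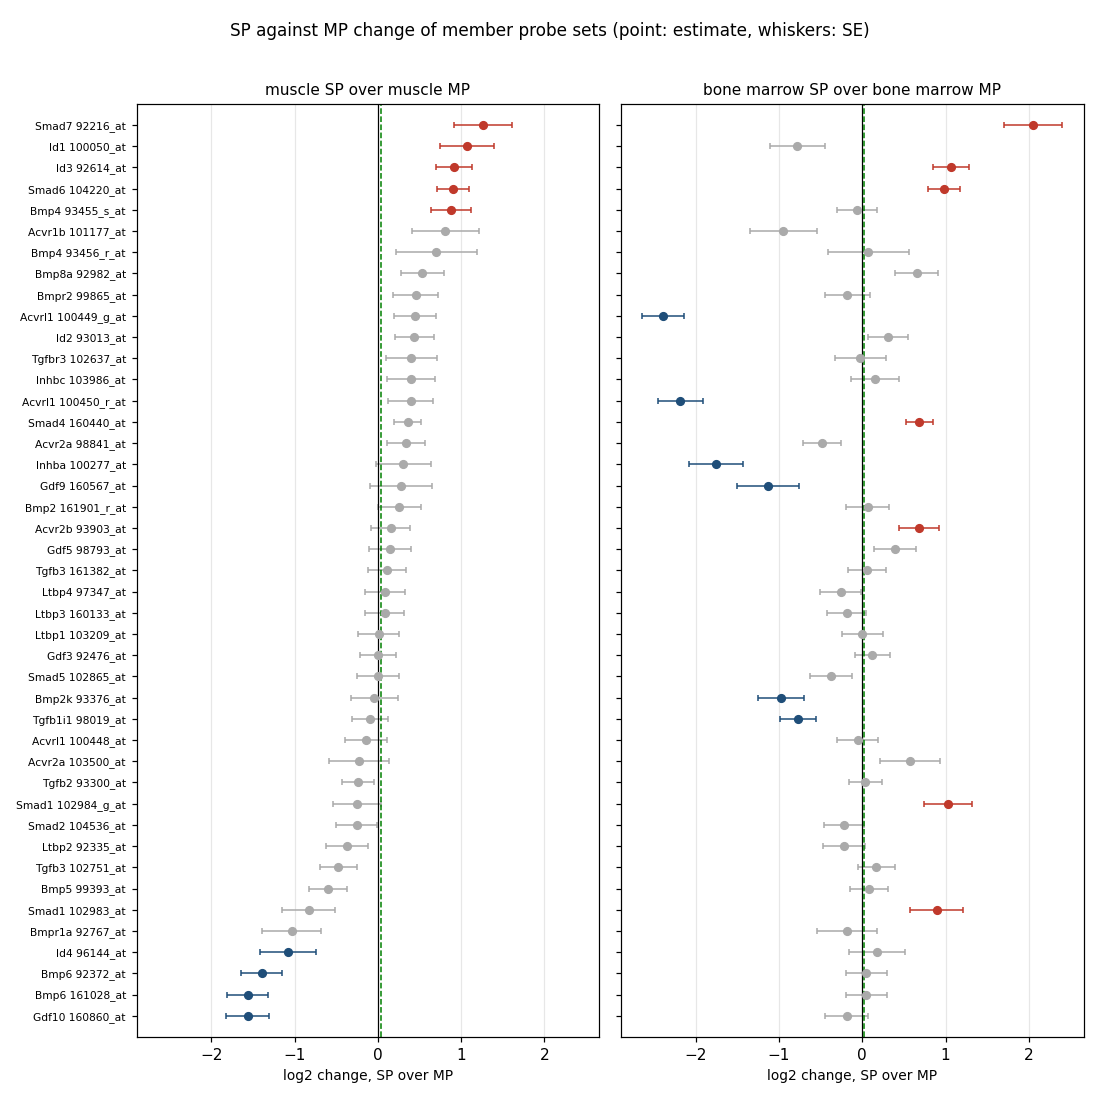
Log2 difference of SP over MP cells for the 43 probe sets, in muscle (left) and bone marrow (right), with points for the limma estimate and whiskers for its SE (5 arrays a group). Red points were called higher in SP cells, blue points lower and grey points were not called, and the green dashed line marks the median of all probe sets tested. Smad7, Smad6 and Id3 are red on both sides, and Acvrl1 is blue in bone marrow for 2 of its 3 probe sets.

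The Id genes, named above as BMP targets, did not all move the same way between SP and MP cells. For Id1 the 5 arrays read 13204, 16451, 17300, 7957 and 9289 in muscle SP cells, against 5142, 5780, 6571, 5726 and 6037 in muscle MP cells, in array order 1 to 5. Every muscle SP array lay above every muscle MP array, and arrays 4 and 5 were the lowest of the SP arrays. Id1 was 2.1-fold higher (log2 change 1.07 ± 0.33 SE, adjusted p = 0.0352) in muscle SP than in muscle MP cells. In bone marrow the order was the other way and the groups overlapped, with 451, 648, 902, 1427 and 1501 in SP cells and 1037, 1655, 1742, 2986 and 936 in MP cells, a log2 change of -0.78 ± 0.33 (SE, adjusted p = 0.0786) that missed the threshold. The SP against MP change of Id1 differed between the tissues by 1.85 ± 0.46 (SE, adjusted p = 0.00685).
The muscle call of Id1 was close to the threshold. It missed it when any one of muscle SP arrays 1, 2 and 3 or any one of the 5 muscle MP arrays was left out, with adjusted p between 0.0522 and 0.0916 and log2 changes between 0.95 and 1.12, and it missed it with the GAPDH ratio as a covariate (log2 change 1.05, adjusted p = 0.122). Without muscle SP arrays 4 and 5 the log2 change was 1.41 (adjusted p = 0.0147). The bone marrow change of Id1 was called, lower in SP cells, with median scaling (log2 change -0.96, adjusted p = 0.0261) and with array weights (-0.85, adjusted p = 0.0417). It was also called without the 3 arrays of highest GAPDH ratio (-1.27, adjusted p = 0.00747) and without bone marrow SP array 4 or 5 or MP array 5 (adjusted p 0.0333 to 0.0395). With the GAPDH ratio as a covariate it was not called (-0.80, adjusted p = 0.158).

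Id3, which like Id1 is induced by BMP, was higher in SP cells of both tissues. Its signals were 10306, 16538, 20255, 14263 and 12137 in muscle SP cells, against 5616, 7303, 9357, 8388 and 7864 in muscle MP cells. In bone marrow they were 2285, 2298, 1776, 2992 and 2069 in SP cells, against 791, 1052, 1284, 1484 and 894 in MP cells. No array of an SP group fell within its MP group in either tissue. Id3 was 1.88-fold higher (log2 change 0.91 ± 0.21 SE, adjusted p = 0.00647) in muscle SP than in muscle MP cells and 2.1-fold higher (log2 change 1.07 ± 0.21 SE, adjusted p = 0.00054) in bone marrow SP than in bone marrow MP cells. The difference between those changes was -0.16 ± 0.30 (SE, adjusted p = 0.784). Both calls held under each of the 33 alternatives tried.

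Id4, best known for its part in neural and glial precursors, was lower in muscle SP cells. It read 2635, 1450, 826, 1291 and 1726 in muscle SP cells, against 2972, 5434, 2556, 1955 and 3645 in muscle MP cells. One SP array, the first, lay inside the MP range, and the other 4 lay below it. Id4 was 2.11-fold lower (log2 change -1.08 ± 0.33 SE, adjusted p = 0.0372) in muscle SP than in muscle MP cells, and this call was lost without muscle SP arrays 4 and 5 (log2 change -1.08, adjusted p = 0.0863). It was also lost when muscle SP array 2, 3 or 4 or muscle MP array 1, 2 or 5 was left out, with adjusted p of 0.0588 to 0.113 and log2 changes of -1.09 to -0.87. In bone marrow Id4 overlapped, with 446 to 1243 in SP cells and 449 to 1060 in MP cells. Id2 was bright in every group, with 11907 to 24944 in muscle SP cells, 11591 to 14642 in muscle MP cells, 6741 to 13990 in bone marrow SP cells and 4704 to 9939 in bone marrow MP cells. Its SP against MP log2 changes of 0.44 ± 0.24 (SE, adjusted p = 0.27) in muscle and 0.31 ± 0.24 (SE, adjusted p = 0.373) in bone marrow missed the threshold.

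All Id genes were higher in muscle than in bone marrow in both sorted populations. For Id1 the muscle signal was 13.8-fold higher (log2 change 3.78 ± 0.33 SE, adjusted p = 2.59e-09) than the bone marrow signal among SP cells and 3.82-fold higher (log2 change 1.93 ± 0.33 SE, adjusted p = 3.53e-05) among MP cells. For Id3 it was 6.35-fold higher (log2 change 2.67 ± 0.21 SE, adjusted p = 7.62e-10) among SP cells and 7.09-fold higher (log2 change 2.82 ± 0.21 SE, adjusted p = 1.75e-10) among MP cells. Id4 was 2.12-fold higher (log2 change 1.09 ± 0.33 SE, adjusted p = 0.0119) in muscle SP than in bone marrow SP cells and 5.07-fold higher (log2 change 2.34 ± 0.33 SE, adjusted p = 3.46e-06) in muscle MP than in bone marrow MP cells. Id2 differed least, being 1.94-fold higher (log2 change 0.96 ± 0.24 SE, adjusted p = 0.00242) among SP cells and 1.78-fold higher (log2 change 0.83 ± 0.24 SE, adjusted p = 0.00629) among MP cells, and with median scaling the MP call was lost (log2 difference 0.53, adjusted p = 0.141).

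**Figure D2:**
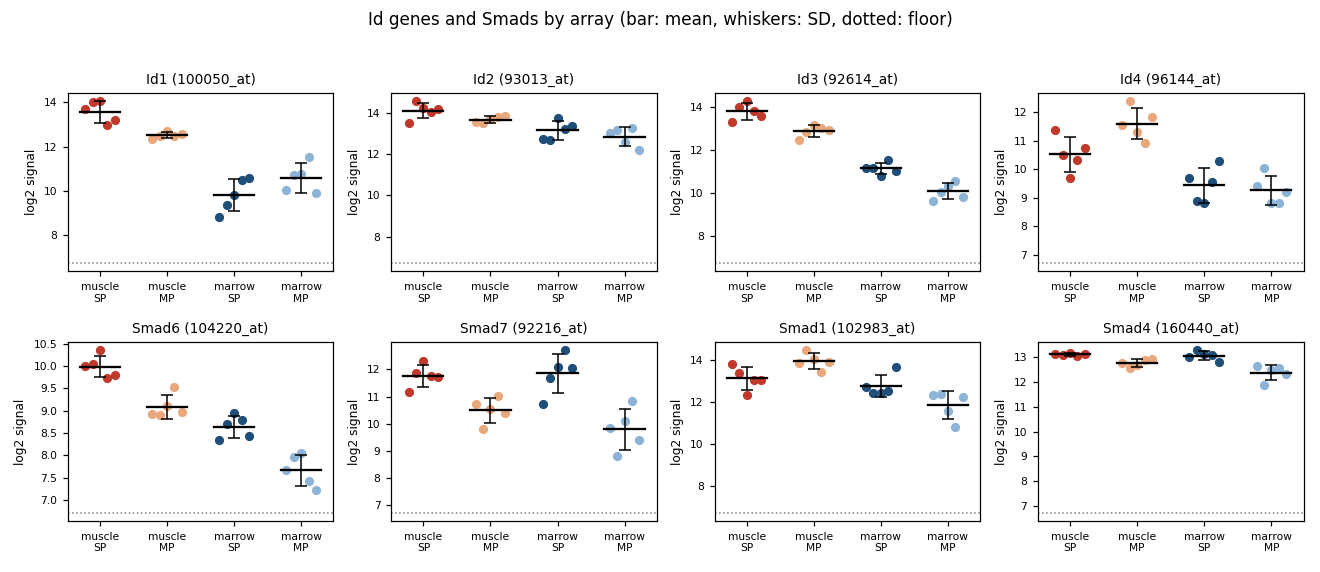
Log2 signal of Id and Smad probe sets on each array, by group (SP then MP cells of muscle, then those of bone marrow). Points are arrays, bars are means, whiskers are SD (n = 5) and the dotted line is the floor. Id3, Smad6 and Smad4 show no overlap between SP and MP arrays within either tissue, nor do Id1 and Smad7 in muscle and Smad1 in bone marrow.

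Smad6 and Smad7 are the inhibitory Smads, of which Smad6 acts mainly on BMP receptors and Smad7 on both branches. Smad6 read 1023, 1051, 1301, 853 and 889 in muscle SP cells, against 486, 479, 548, 742 and 500 in muscle MP cells. In bone marrow it read 326, 415, 492, 440 and 344 in SP cells, against 204, 250, 263, 171 and 149 in MP cells. SP and MP arrays did not overlap in either tissue. Smad6 was 1.86-fold higher (log2 change 0.90 ± 0.19 SE, adjusted p = 0.00311) in muscle SP than in muscle MP cells and 1.97-fold higher (log2 change 0.98 ± 0.19 SE, adjusted p = 0.000449) in bone marrow SP than in bone marrow MP cells. Both calls held under all 33 alternatives. Muscle cells also had more Smad6 signal than bone marrow cells, being 2.54-fold higher (log2 change 1.34 ± 0.19 SE, adjusted p = 5.39e-06) among SP cells and 2.68-fold higher (log2 change 1.42 ± 0.19 SE, adjusted p = 1.73e-06) among MP cells.

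Smad7 had the largest SP against MP rise of the set in each tissue. Its signals were 2277, 3714, 5068, 3443 and 3389 in muscle SP cells, against 1698, 885, 1492, 2101 and 1342 in muscle MP cells, with every SP array above every MP array. They were 1695, 3264, 4410, 6650 and 4244 in bone marrow SP cells, against 920, 451, 1091, 1817 and 680 in bone marrow MP cells, where the lowest SP array fell below the highest MP array. Smad7 was 2.4-fold higher (log2 change 1.26 ± 0.35 SE, adjusted p = 0.0202) in muscle SP than in muscle MP cells and 4.15-fold higher (log2 change 2.05 ± 0.35 SE, adjusted p = 0.000105) in bone marrow SP than in bone marrow MP cells. The difference between the tissues in that change, -0.79 ± 0.50 (SE, adjusted p = 0.307), missed the threshold. In muscle the call of Smad7 was lost when SP array 3 or MP array 2 was left out (log2 changes 1.08 to 1.13, adjusted p 0.0593 to 0.0664), and without SP arrays 4 and 5 together (log2 change 1.27, adjusted p = 0.0565). Levels of Smad7 did not pass the test between tissues, with log2 differences of -0.09 ± 0.35 (SE, adjusted p = 0.868) among SP cells and 0.70 ± 0.35 (SE, adjusted p = 0.109) among MP cells.

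Endothelial markers moved with Smad6, Smad7 and Id3, with 4 of 10 measured genes higher and 0 lower in muscle SP than in muscle MP cells, and 7 higher and 1 lower in bone marrow SP than in bone marrow MP cells. T and NK cell markers moved with them too, with 6 of 10 measured genes higher and 0 lower in muscle SP cells and 8 of 10 higher and 0 lower in bone marrow SP cells. Blood stem cell markers were higher in bone marrow SP cells for 7 of 7 measured genes, and in muscle SP cells 1 of 7 was higher and 0 lower. Of all probe sets tested, 5.1% were higher and 6.64% lower in muscle SP cells. In bone marrow SP cells 15.4% were higher and 14.8% lower. The part of these markers in the results was not tested. With the GAPDH ratio as a covariate the Smad6, Smad7 and Id3 calls of both tissues held, while the bone marrow calls of Smad1 and Acvr2b and the muscle call of Id1 did not.

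The upstream windows of Smad6, Id3, Id4 and Bmp6, whose signals differed between SP and MP cells, are shown because Smad proteins bind short DNA motifs there. They are examples from the called members, picked without a stated rule, and each holds a match. Windows of other called members are not printed, among them those of Gdf10, where GGCGCC and CAGAC both occur. RefSeq windows of 300 bases (250 before to 50 after the start) on GRCm38.p6 matched 36 of the 49 genes. Both strands were searched for 3 motifs. The first is the GC-rich element GGCGCC, which is bound by Smad1 with Smad5. The second is the Smad box CAGAC, which reads GTCTG on the other strand. The palindromic box is GTCTAGAC, which contains neither of the other motifs. Capitals mark every match. The windows, 5′ to 3′ on the gene's strand, are Smad6 at chr9:64022010-64022309 (minus strand), Id3 at chr4:136143572-136143871 (plus), Id4 at chr13:48260866-48261165 (plus) and Bmp6 at chr13:38345466-38345765 (plus).
Smad6: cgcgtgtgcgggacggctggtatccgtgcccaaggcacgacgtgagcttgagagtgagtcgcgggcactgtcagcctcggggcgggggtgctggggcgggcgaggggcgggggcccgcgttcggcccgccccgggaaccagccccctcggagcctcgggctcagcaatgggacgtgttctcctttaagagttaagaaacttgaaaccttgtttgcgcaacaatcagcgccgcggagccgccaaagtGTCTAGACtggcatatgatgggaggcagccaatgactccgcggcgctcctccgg
Id3: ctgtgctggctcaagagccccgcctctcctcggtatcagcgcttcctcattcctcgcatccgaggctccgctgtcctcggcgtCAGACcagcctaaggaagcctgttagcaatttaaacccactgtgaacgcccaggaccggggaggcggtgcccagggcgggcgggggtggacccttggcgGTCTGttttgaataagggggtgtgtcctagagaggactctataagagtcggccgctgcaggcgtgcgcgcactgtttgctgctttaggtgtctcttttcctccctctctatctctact
Id4: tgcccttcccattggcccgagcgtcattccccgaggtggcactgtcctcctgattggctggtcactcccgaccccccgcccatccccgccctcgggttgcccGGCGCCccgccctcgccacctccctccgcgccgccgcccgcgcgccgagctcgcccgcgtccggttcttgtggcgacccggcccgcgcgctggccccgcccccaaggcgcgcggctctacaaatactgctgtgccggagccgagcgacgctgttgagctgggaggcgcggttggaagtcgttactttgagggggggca
Bmp6: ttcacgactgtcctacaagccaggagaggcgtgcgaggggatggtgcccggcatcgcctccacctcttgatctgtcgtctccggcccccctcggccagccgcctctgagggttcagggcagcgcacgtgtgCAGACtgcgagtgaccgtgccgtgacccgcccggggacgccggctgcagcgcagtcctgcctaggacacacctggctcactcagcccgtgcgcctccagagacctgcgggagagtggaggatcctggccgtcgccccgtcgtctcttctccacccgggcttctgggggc
The Smad6 window holds GTCTAGAC once, as do 0.213% of all 32851 windows of that length, and it was the only one of 44 windows of these genes to hold it. The Id3 window holds CAGAC or its reverse 2 times and the Bmp6 window holds it once, as 20 of the 44 windows and 49.6% of all windows do at least once. The Id4 window holds GGCGCC once, as do 12 of the 44 windows and 11.9% of all. A match is a description of these letters and does not show a bound factor.

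Smad1 carries the BMP signal and was measured by a pair of probe sets, of which the one with the g suffix can cross-hybridise. The other, 102983_at, read 14735, 10649, 5212, 8572 and 8492 in muscle SP cells, against 15266, 22747, 17340, 11218 and 15593 in muscle MP cells, and these overlapped. In bone marrow it read 6870, 5639, 5616, 5876 and 13258 in SP cells, against 5224, 5382, 3109, 1799 and 4840 in MP cells. The SP arrays lay above all MP arrays there, and SP array 5 was far above the rest. Smad1 was 1.86-fold higher (log2 change 0.90 ± 0.32 SE, adjusted p = 0.036) in bone marrow SP than in bone marrow MP cells by this probe set and 2.04-fold higher (log2 change 1.03 ± 0.29 SE, adjusted p = 0.0082) by the other. In muscle the log2 changes were -0.83 ± 0.32 (SE, adjusted p = 0.0959) and -0.25 ± 0.29 (SE, adjusted p = 0.674), below the threshold, and the difference between tissues was -1.72 ± 0.45 (SE, adjusted p = 0.00872) and -1.28 ± 0.40 (SE, adjusted p = 0.0299). The bone marrow call of 102983_at was lost without SP array 5, MP array 3 or MP array 4 (log2 changes 0.63 to 0.82, adjusted p 0.0798 to 0.130). With the GAPDH ratio as a covariate the bone marrow calls of both probe sets were lost (log2 changes 0.37 and 0.52, adjusted p = 0.448 and 0.197). In muscle, Smad1 by 102983_at was then called lower in SP cells (log2 change -1.41, adjusted p = 0.00974). Without the 3 arrays of highest GAPDH ratio 102983_at was likewise called lower in muscle SP cells (-0.99, adjusted p = 0.0293) and was not called in bone marrow (0.68, adjusted p = 0.128). With median scaling the log2 changes of Smad1 in bone marrow were 0.36 and 0.44 (adjusted p = 0.471 and 0.390) and the differences between tissues were -1.17 and -0.51 (adjusted p = 0.101 and 0.536).

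Smad4, the shared partner, read 8267, 9952, 9086, 8728 and 7111 in bone marrow SP cells, against 6519, 3758, 5685, 6056 and 5090 in bone marrow MP cells. The groups did not overlap, and Smad4 was 1.61-fold higher (log2 change 0.69 ± 0.16 SE, adjusted p = 0.00211) in bone marrow SP cells, but with median scaling in place of quantile normalization the log2 change was 0.08 (adjusted p = 0.789). In muscle the arrays did not overlap either, with 8421 to 9388 in SP cells against 6037 to 7814 in MP cells, while the log2 change of Smad4, 0.36 ± 0.16 (SE, adjusted p = 0.166), missed the threshold. Smad2, which carries TGF-beta and activin signals, was the Smad with lower signal in muscle. It was 1.76-fold lower (log2 change -0.81 ± 0.24 SE, adjusted p = 0.0106) in muscle SP (3523 to 5104) than in bone marrow SP cells (5925 to 12336) and 1.71-fold lower (log2 change -0.78 ± 0.24 SE, adjusted p = 0.0118) in muscle MP (4057 to 8388) than in bone marrow MP cells (5957 to 12435). The SP call of Smad2 was lost without muscle SP arrays 4 and 5 (log2 change -0.66, adjusted p = 0.0879). Smad5, a BMP effector, was dim in all groups, at 105 to 281, and was not called. Smad3 was at the floor on all 20 arrays.

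Among the BMP ligands, Bmp4 was higher and Bmp6 lower in muscle SP than in muscle MP cells. Bmp4, a ligand of vessel wall and stromal cells, read 1754, 2160, 1790, 4384 and 3573 in muscle SP cells, against 1370, 1610, 1275, 1088 and 1647 in muscle MP cells, by probe set 93455_s_at. The SP arrays lay above all MP arrays, and arrays 4 and 5 were the highest. Bmp4 was 1.84-fold higher (log2 change 0.88 ± 0.24 SE, adjusted p = 0.0177) in muscle SP cells, but without arrays 4 and 5 the log2 change was 0.45 (adjusted p = 0.196). Leaving out muscle SP array 4, SP array 5 or MP array 4 alone also ended the call (log2 changes 0.68 to 0.79, adjusted p 0.0522 to 0.0578). Its second probe set, 93456_r_at, overlapped between the groups, with 276 to 2488 in muscle SP and 212 to 841 in muscle MP cells. Its mean log2 signals were 9.69 in muscle SP and 8.99 in muscle MP cells, and without SP arrays 4 and 5 its log2 change was -0.34 (adjusted p = 0.616). Both probe sets carry a suffix that marks possible cross-hybridisation. In bone marrow Bmp4 was not called, with 356 to 701 in SP and 432 to 524 in MP cells by 93455_s_at.

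Bmp6, known for its part in iron regulation and bone formation, fell in muscle SP cells on both of its probe sets. By 161028_at it read 929, 806, 694, 1331 and 1144 in muscle SP cells, against 2286, 2607, 1907, 3189 and 4870 in muscle MP cells. By 92372_at it read 236, 276, 263, 579 and 558 in muscle SP cells, against 973, 642, 725, 1114 and 1378 in muscle MP cells. Every SP array lay below every MP array on both. Bmp6 was 2.95-fold lower (log2 change -1.56 ± 0.24 SE, adjusted p = 0.000155) and 2.63-fold lower (log2 change -1.39 ± 0.24 SE, adjusted p = 0.000504) in muscle SP than in muscle MP cells on those probe sets, and both calls held under all 33 alternatives. In bone marrow it was at the floor on 4 of 5 arrays of each group by 161028_at, and the SP against MP change differed between tissues by -1.61 ± 0.35 (SE, adjusted p = 0.00204) and -1.45 ± 0.34 (SE, adjusted p = 0.00465). The difference of 161028_at missed the threshold with the floor at the 10th percentile (log2 difference -1.06, adjusted p = 0.212) and with a pseudocount in place of the floor (-1.21, adjusted p = 0.0526).

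Gdf10 (BMP-3b), a divergent member of the family, was the other ligand that fell in muscle SP cells. It read 375, 322, 580, 231 and 213 in muscle SP cells, against 924, 957, 837, 1422 and 736 in muscle MP cells, with no overlap. Gdf10 was 2.95-fold lower (log2 change -1.56 ± 0.26 SE, adjusted p = 0.000317) in muscle SP than in muscle MP cells under all 33 alternatives, and the difference from the bone marrow change was -1.38 ± 0.37 (SE, adjusted p = 0.011). Fibroblast and matrix markers moved in the same direction in muscle, with 7 of 9 measured genes lower in SP cells and 0 higher, and satellite cell and myogenic markers did so as well, 7 of 9 lower and 0 higher. Macrophage and monocyte markers were lower for 8 of 9 measured genes and higher for 0. Among all probe sets tested, 6.64% were lower and 5.1% higher in muscle SP cells. The part of these markers in the lower Bmp6, Gdf10 and Id4 signal was not tested.

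Bmp5 and the type I receptor gene Bmpr1a depended on the 2 muscle SP arrays that stood apart. Bmp5 read 164, 215, 258, 422 and 448 in muscle SP cells, against 432, 450, 425, 347 and 479 in muscle MP cells, a log2 change of -0.60 ± 0.23 (SE, adjusted p = 0.0958) that missed the threshold. Without SP arrays 4 and 5 it was -1.02 (adjusted p = 0.00224). Bmpr1a read 105, 105, 105, 287 and 548 in muscle SP cells, against 272, 387, 254, 619 and 395 in muscle MP cells. Its 3 other SP arrays were at the floor, and the log2 change moved to -1.80 (adjusted p = 4.89e-05) without arrays 4 and 5, against -1.04 ± 0.36 (SE, adjusted p = 0.0636) with them. Bmp8a had its lowest muscle SP values on those arrays, at 277, 151, 226, 105 and 108 in muscle SP cells against 105, 105, 105, 140 and 105 in muscle MP cells, with a log2 change of 0.53 ± 0.26 (SE, adjusted p = 0.202) on all arrays and 0.93 (adjusted p = 0.0215) without arrays 4 and 5.

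Bmp2, Gdf5 and Gdf3 gave dim signals. Bmp2 was near the floor in all groups, at 105 to 265 by its only passing probe set, and was not called in any comparison. Gdf5, which patterns joints, lay between 105 and 300 and Gdf3 between 105 and 227, and neither was called. Gdf9, an oocyte growth factor, read 124, 443, 524, 801 and 684 in bone marrow SP cells, against 1183, 1011, 888, 889 and 856 in bone marrow MP cells. All SP arrays lay below the MP arrays, and Gdf9 was 2.2-fold lower (log2 change -1.14 ± 0.37 SE, adjusted p = 0.0237), a call lost without SP array 1 or MP array 1 (log2 changes -1.06 to -0.69, adjusted p 0.0561 to 0.0599).

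Among the TGF-beta ligands, Tgfb2 and Tgfb3 separated muscle from bone marrow and were not called between SP and MP cells. Tgfb2 read 2323, 3070, 2151, 2120 and 3714 in muscle SP cells and 2295, 3532, 3879, 2730 and 3215 in muscle MP cells. It read 144, 150, 126, 105 and 136 in bone marrow SP cells and 139, 155, 105, 105 and 145 in bone marrow MP cells, close to or at the floor. Tgfb2 was 19.9-fold higher (log2 change 4.31 ± 0.20 SE, adjusted p = 4.55e-14) in muscle SP than in bone marrow SP cells and 24.1-fold higher (log2 change 4.59 ± 0.20 SE, adjusted p = 1.11e-14) in muscle MP than in bone marrow MP cells, and the floor shortens these folds. Tgfb3 by 102751_at ran from 2149 to 4749 in muscle SP cells and from 3383 to 5577 in muscle MP cells, against 429 to 696 in bone marrow SP cells and 389 to 662 in bone marrow MP cells. It was 5.14-fold higher (log2 change 2.36 ± 0.22 SE, adjusted p = 8.14e-09) among SP cells and 8.04-fold higher (log2 change 3.01 ± 0.22 SE, adjusted p = 8.87e-11) among MP cells. Without muscle SP arrays 4 and 5, Tgfb3 was lower in muscle SP than in muscle MP cells (log2 change -0.75, adjusted p = 0.0345), against -0.48 ± 0.22 (SE, adjusted p = 0.182) on all arrays. Its second probe set, 161382_at, was dim and was 1.62-fold higher (log2 change 0.70 ± 0.23 SE, adjusted p = 0.0178) in muscle SP than in bone marrow SP cells and at least 1.57-fold higher (log2 change 0.65 ± 0.23 SE, adjusted p = 0.0234) in muscle MP than in bone marrow MP cells. The SP call of this probe set was lost without muscle SP array 4 or 5 (log2 differences 0.49 to 0.59, adjusted p 0.0594 to 0.0699) or without both (0.27, adjusted p = 0.322), and the MP call without muscle MP array 1 or 4 (log2 differences 0.58 to 0.61, adjusted p 0.052 to 0.0575). Tgfb1, the main ligand of blood cells, did not pass the filter: its probe set was above the floor on 1 muscle SP and 3 bone marrow SP arrays, at 281 in muscle and 141, 388 and 143 in bone marrow.

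**Figure D3:**
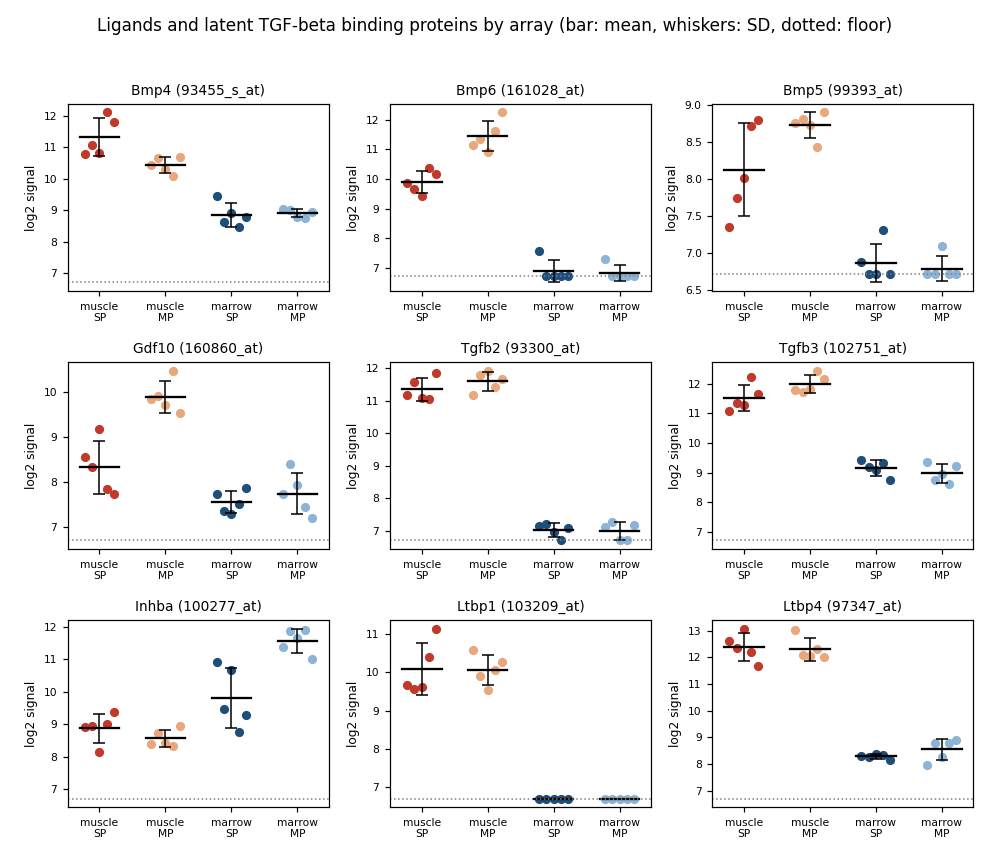
Log2 signal of ligand and latent binding protein probe sets on each array, by group. Points are arrays, bars are means, whiskers are SD (n = 5) and the dotted line is the floor. Bmp6 and Gdf10 sit lower in muscle SP than in muscle MP cells, Inhba is highest in bone marrow MP cells, and Tgfb2, Ltbp1 and Ltbp4 separate muscle from bone marrow.

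Latent TGF-beta binding proteins (Ltbp) hold the inactive ligand in the extracellular matrix. Ltbp1 read 810, 754, 788, 1348 and 2241 in muscle SP cells and 1531, 955, 743, 1056 and 1218 in muscle MP cells, and it was at the floor on all 10 bone marrow arrays. It was therefore at least 10.3-fold higher in muscle SP than in bone marrow SP cells (log2 difference 3.36 ± 0.24 SE, adjusted p = 1.36e-10) and at least 10.2-fold higher among MP cells (log2 difference 3.35 ± 0.24, adjusted p = 8.36e-11). Ltbp4 read 6249, 5262, 8631, 4744 and 3238 in muscle SP cells and 8394, 4390, 4224, 5029 and 4150 in muscle MP cells, against 286 to 334 in bone marrow SP and 253 to 482 in bone marrow MP cells. It was 17.0-fold higher (log2 change 4.09 ± 0.24 SE, adjusted p = 4.73e-12) among SP cells and 13.5-fold higher (log2 change 3.75 ± 0.24 SE, adjusted p = 1.27e-11) among MP cells. Ltbp3 was not called in any comparison, with 766 to 1915 in muscle SP, 832 to 1529 in muscle MP, 932 to 1214 in bone marrow SP and 833 to 1654 in bone marrow MP cells, and Ltbp2 stayed between 105 and 298. No Ltbp gene was called between SP and MP cells in either tissue.

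Inhba, which encodes the subunit of activin A, was lower in SP than in MP cells of bone marrow. It read 1916, 704, 1616, 434 and 623 in bone marrow SP cells, against 2679, 3725, 3243, 3853 and 2057 in bone marrow MP cells, without overlap. Inhba was 3.37-fold lower (log2 change -1.75 ± 0.33 SE, adjusted p = 0.000269) in bone marrow SP than in bone marrow MP cells. In muscle it was 281 to 663 in SP and 321 to 494 in MP cells, with a difference between the tissues in the SP against MP change of 2.06 ± 0.46 (SE, adjusted p = 0.00302). Inhba was 8.001-fold lower (log2 change -3.00 ± 0.33 SE, adjusted p = 7.19e-08) in muscle MP than in bone marrow MP cells. Among SP cells it was 1.92-fold lower (log2 change -0.94 ± 0.33 SE, adjusted p = 0.0265) in muscle, a call lost without muscle SP array 3 or bone marrow SP array 1 or 3 (adjusted p 0.0821 to 0.0943). The macrophage and monocyte markers fell with it in bone marrow, 6 of 9 measured genes being lower in SP cells and 0 higher, with sums of 24726 to 77706 in SP against 126587 to 142085 in MP cells. B lineage markers fell there as well, 9 of 9 measured genes being lower, and granulocyte markers were lower for 3 of 10 and higher for 0. Among all probe sets tested, 14.8% were lower and 15.4% higher in bone marrow SP cells. The part of these markers in the Inhba result was not tested. Inhbc, another activin subunit gene, lay between 265 and 886 and was not called.

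Acvrl1, the type I receptor for BMP9 and BMP10 on endothelium, gave the largest SP against MP differences of the set. By 100449_g_at it read 312, 405, 260, 427 and 251 in bone marrow SP cells, against 1555, 1464, 1622, 2258 and 1674 in bone marrow MP cells. By 100450_r_at it read 802, 651, 701, 479 and 409 in bone marrow SP cells, against 2523, 2191, 2601, 3725 and 2586 in bone marrow MP cells. The groups were far apart on both probe sets, and Acvrl1 was 5.25-fold lower (log2 change -2.39 ± 0.25 SE, adjusted p = 2.37e-07) and 4.54-fold lower (log2 change -2.18 ± 0.27 SE, adjusted p = 2.07e-06) in bone marrow SP cells. In muscle the log2 changes were 0.44 ± 0.25 (SE, adjusted p = 0.296) and 0.39 ± 0.27 (SE, adjusted p = 0.407), not called, and the tissues differed by 2.84 ± 0.36 (SE, adjusted p = 7.61e-06) and 2.58 ± 0.38 (SE, adjusted p = 4.95e-05). The third probe set, 100448_at, disagreed, with 281 to 808 in bone marrow SP and 532 to 628 in bone marrow MP cells and a log2 change of -0.06 ± 0.25 (SE, adjusted p = 0.913). The probe sets that fell carry the g and r suffixes and can cross-hybridise, while the one that did not carries none. Endothelial markers moved the other way in bone marrow, with 7 of 10 measured genes higher in SP cells and 1 lower. B lineage markers fell with Acvrl1 there, 9 of 9 measured genes being lower in SP cells, and so did macrophage and monocyte markers, 6 of 9 lower and 0 higher. The shares of all probe sets tested were 15.4% higher and 14.8% lower in bone marrow SP cells. The part of these markers in the Acvrl1 result was not tested.

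**Figure D4:**
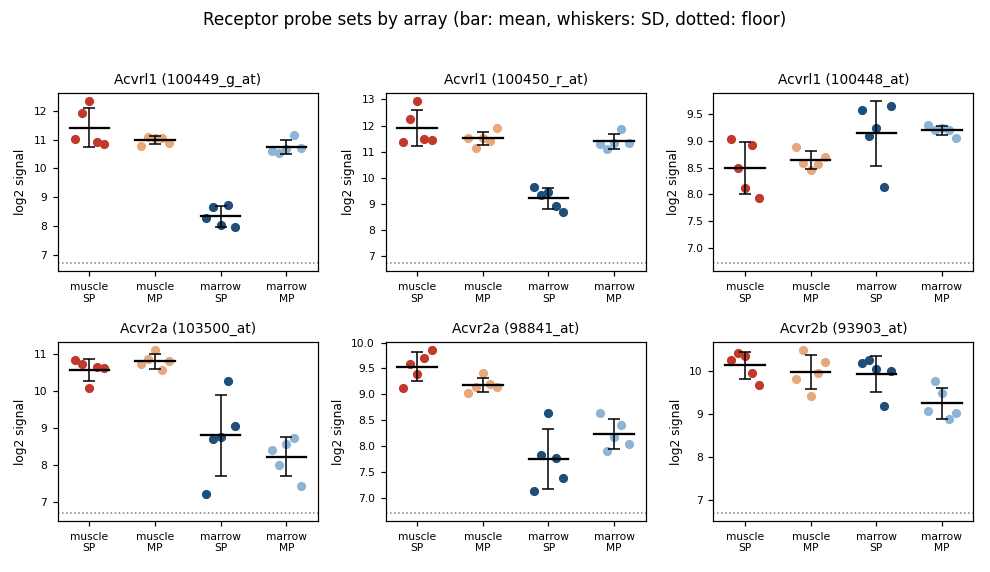
Log2 signal of receptor probe sets on each array, by group. Points are arrays, bars are means, whiskers are SD (n = 5) and the dotted line is the floor. Acvrl1 is low in bone marrow SP cells by 100449_g_at and 100450_r_at but not by 100448_at.

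Among the activin type II receptors, Acvr2a was higher in muscle in both sorted populations and Acvr2b was higher there among MP cells, its log2 difference among SP cells, 0.20 ± 0.24 (SE, adjusted p = 0.556), missing the threshold. Acvr2a by 98841_at read 558, 765, 674, 832 and 920 in muscle SP cells, against 140, 228, 398, 218 and 167 in bone marrow SP cells. It was 3.43-fold higher (log2 change 1.78 ± 0.23 SE, adjusted p = 1.12e-06) there and 1.94-fold higher (log2 change 0.95 ± 0.23 SE, adjusted p = 0.00142) among MP cells, and its second probe set, 103500_at, gave 3.43-fold among SP cells and 5.98-fold among MP cells. Acvr2b read 1159, 1218, 1056, 587 and 1032 in bone marrow SP cells, against 542, 869, 724, 474 and 526 in bone marrow MP cells. It was 1.6-fold higher (log2 change 0.68 ± 0.24 SE, adjusted p = 0.0322) in bone marrow SP cells with SP array 4 inside the MP range, and the call was lost when any one of SP arrays 1, 2, 3 and 5 or MP arrays 1, 4 and 5 was left out (log2 changes 0.59 to 0.67, adjusted p 0.057 to 0.088), as well as with the GAPDH ratio as a covariate (0.55, adjusted p = 0.167). Acvr1b (Alk4), the activin type I receptor, was 2.76-fold lower (log2 change -1.47 ± 0.40 SE, adjusted p = 0.00423) in muscle MP (105 to 593) than in bone marrow MP cells (522 to 967). Its SP against MP change differed between tissues by 1.76 ± 0.56 (SE, adjusted p = 0.0322), which missed the threshold without muscle SP arrays 4 and 5 (log2 difference 1.65, adjusted p = 0.0751) and when any one of 7 arrays was left out (muscle SP 1 and 4, muscle MP 1 and 5, bone marrow SP 4, bone marrow MP 1 and 5; log2 differences 1.44 to 1.66, adjusted p 0.054 to 0.0648).

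Bmpr2, the BMP type II receptor, was 238 to 461 in muscle SP, 215 to 345 in muscle MP, 105 to 307 in bone marrow SP and 142 to 280 in bone marrow MP cells. It was 1.98-fold higher (log2 change 0.99 ± 0.27 SE, adjusted p = 0.00531) in muscle SP than in bone marrow SP cells, and without muscle SP arrays 4 and 5 the log2 difference of 0.74 missed the threshold (adjusted p = 0.0703). Bmpr1a was 3.08-fold higher (log2 change 1.62 ± 0.36 SE, adjusted p = 0.000675) in muscle MP than in bone marrow MP cells (105 to 157). The floor shortens this fold, since it held 2 of 5 bone marrow MP arrays, and it held all 5 bone marrow SP arrays. With the floor at the 10th percentile Bmpr1a was also called higher in muscle SP than in bone marrow SP cells (log2 difference 2.16, adjusted p = 0.00286). It was then called lower in bone marrow SP than in bone marrow MP cells (-1.50, adjusted p = 0.0416). With a pseudocount in place of the floor these were 2.09 (adjusted p = 0.000552) and -1.43 (adjusted p = 0.0169). Tgfbr3 (betaglycan), the co-receptor that presents TGF-beta2, was dim at 105 to 348 and was not called. The probe sets of Tgfbr2, Bmp15, Bmp8b and Smad3 were at the floor on all 20 arrays. Those of Acvr1, Tgfbr1, Bmpr1b, Bmp7, Bmp10, Gdf11, Inhbb and Inhbe were above it on 1 to 4 arrays, at up to 183. With Tgfb1, these 13 genes had no probe set that passed the filter, and their levels could not be compared. The other 3 probe sets that failed it belong to Bmp2 and Gdf3.

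Bmp2k and Tgfb1i1, the kinase and focal adhesion protein genes that their symbols brought in, had lower signal in bone marrow SP than in bone marrow MP cells. Bmp2k, a kinase named for its induction by BMP2, read 432, 780, 682, 1280 and 1318 in bone marrow SP cells, against 1636, 1863, 1810, 1687 and 1222 in bone marrow MP cells. The 2 highest SP arrays lay inside the MP range, and Bmp2k was 1.97-fold lower (log2 change -0.98 ± 0.28 SE, adjusted p = 0.0103). Tgfb1i1 read 1702, 1312, 1236, 653 and 1557 in bone marrow SP cells, against 2442, 2017, 2076, 1863 and 2161 in bone marrow MP cells, and was 1.71-fold lower (log2 change -0.77 ± 0.22 SE, adjusted p = 0.00904) without overlap.

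Between tissues, muscle cells had the higher signal for most of the probe sets called. Among SP cells 28 of the 43 (65.1%) were called where 38.3% of all probe sets were, 23 of them higher in muscle against a background of 17.1% and 5 lower against 21.2%. Among MP cells 28 (65.1%) were called where 46.5% of all were, 23 higher in muscle against 20.9% and 5 lower against 25.6%. The median log2 difference of the 43 was 0.77 among SP cells and 0.72 among MP cells, where those of all probe sets tested were -0.11 and -0.14. Bmp6 by 161028_at was 8.1-fold higher (log2 change 3.02 ± 0.24 SE, adjusted p = 8.9e-10) among SP cells and 24.8-fold higher (log2 change 4.63 ± 0.24 SE, adjusted p = 3.65e-13) among MP cells. Bmp4 by 93455_s_at was 5.52-fold among SP cells and 2.88-fold among MP cells, and Acvrl1 by 100449_g_at was 8.45-fold higher (log2 change 3.08 ± 0.25 SE, adjusted p = 1.01e-09) among SP cells with a log2 difference of 0.24 ± 0.25 (SE, adjusted p = 0.456) among MP cells. By 92372_at Bmp6 was 3.26-fold higher among SP cells and at least 8.87-fold higher among MP cells. Bone marrow signal of Bmp6 was at the floor on 4 of 5 arrays in each group by 161028_at and on 4 of 5 SP arrays by 92372_at, so the floor shortens these folds.
Bmp5 was 2.4-fold higher (log2 change 1.26 ± 0.23 SE, adjusted p = 0.000105) in muscle SP than in bone marrow SP cells and 3.84-fold higher (log2 change 1.94 ± 0.23 SE, adjusted p = 2.26e-07) in muscle MP than in bone marrow MP cells, folds that the floor shortens, since it held 3 of 5 bone marrow SP and 4 of 5 bone marrow MP arrays. Gdf10 was 1.7-fold higher (log2 change 0.77 ± 0.26 SE, adjusted p = 0.0232) among SP cells, a call lost without muscle SP array 3 or bone marrow SP array 2 or 3 (log2 differences 0.55 to 0.72, adjusted p 0.0516 to 0.0837), and 4.42-fold higher (log2 change 2.14 ± 0.26 SE, adjusted p = 3.86e-07) among MP cells. Smad1 was higher in muscle MP than in bone marrow MP cells by 4.25-fold on 102983_at and 5.05-fold on 102984_g_at, and among SP cells by 2.08-fold on 102984_g_at alone. Tgfb1i1 was 2.68-fold higher (log2 change 1.42 ± 0.22 SE, adjusted p = 1.31e-05) among SP cells and 1.67-fold higher (log2 change 0.74 ± 0.22 SE, adjusted p = 0.00749) among MP cells. Acvr2b was 1.65-fold higher (log2 change 0.72 ± 0.24 SE, adjusted p = 0.0148) among MP cells, which missed the threshold without muscle MP array 2 (log2 difference 0.60, adjusted p = 0.0508). By 93456_r_at Bmp4 was 7.48-fold higher among SP cells and at least 4.84-fold higher among MP cells, with bone marrow SP at the floor on 4 of 5 arrays. The SP log2 difference of this probe set was 2.90 ± 0.49 (SE, adjusted p = 4.27e-05) on all arrays and 1.85 (adjusted p = 0.000311) without muscle SP arrays 4 and 5. By 100450_r_at Acvrl1 was 6.46-fold higher among SP cells. With the floor at the 40th percentile the SP calls of Bmp5 and of Bmp6 by 92372_at and the MP call of Bmp4 by 93456_r_at were lost (adjusted p = 0.125, 0.0897 and 0.0704). So were the SP calls of Gdf10 and Bmpr2 (adjusted p = 0.103 and 0.0538). The SP call of Gdf10 was also lost without further normalization (log2 difference 0.46, adjusted p = 0.198) and with median scaling (0.69, adjusted p = 0.0508). It was lost as well in a fit of the compared groups alone (adjusted p = 0.0514) and without the 3 arrays of highest GAPDH ratio (adjusted p = 0.0548).
Fewer members were lower in muscle. Bmp2k was 2.00-fold lower (log2 change -0.998 ± 0.28 SE, adjusted p = 0.00641) among SP cells and 3.81-fold lower (log2 change -1.93 ± 0.28 SE, adjusted p = 4.53e-06) among MP cells, and Gdf9 was 2.52-fold lower (log2 change -1.33 ± 0.37 SE, adjusted p = 0.00523) among MP cells. Without the 3 arrays of highest GAPDH ratio the SP difference of Bmp2k was -0.47 (adjusted p = 0.195). Bmp8a was 1.6-fold lower (log2 change -0.68 ± 0.26 SE, adjusted p = 0.0406) among SP cells, a call lost without muscle SP arrays 4 and 5 (log2 difference -0.28, adjusted p = 0.45) and when muscle SP array 2, 4 or 5 or bone marrow SP array 2, 3, 4 or 5 was left out (adjusted p 0.0556 to 0.13). Acvrl1 by 100448_at was 1.56-fold lower (log2 change -0.65 ± 0.25 SE, adjusted p = 0.0432) among SP cells, and this call was lost when any one of 13 of the 20 arrays was left out (log2 differences -0.66 to -0.50, adjusted p 0.05 to 0.132). It was also lost without muscle SP arrays 4 and 5 together (log2 difference -0.60, adjusted p = 0.108). Endothelial markers separated the tissues in the same direction, with 9 of 10 genes higher in muscle and 0 lower among SP cells, and so did fibroblast markers, with 9 of 9. Their part in the tissue differences was not tested.

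**Figure D5:**
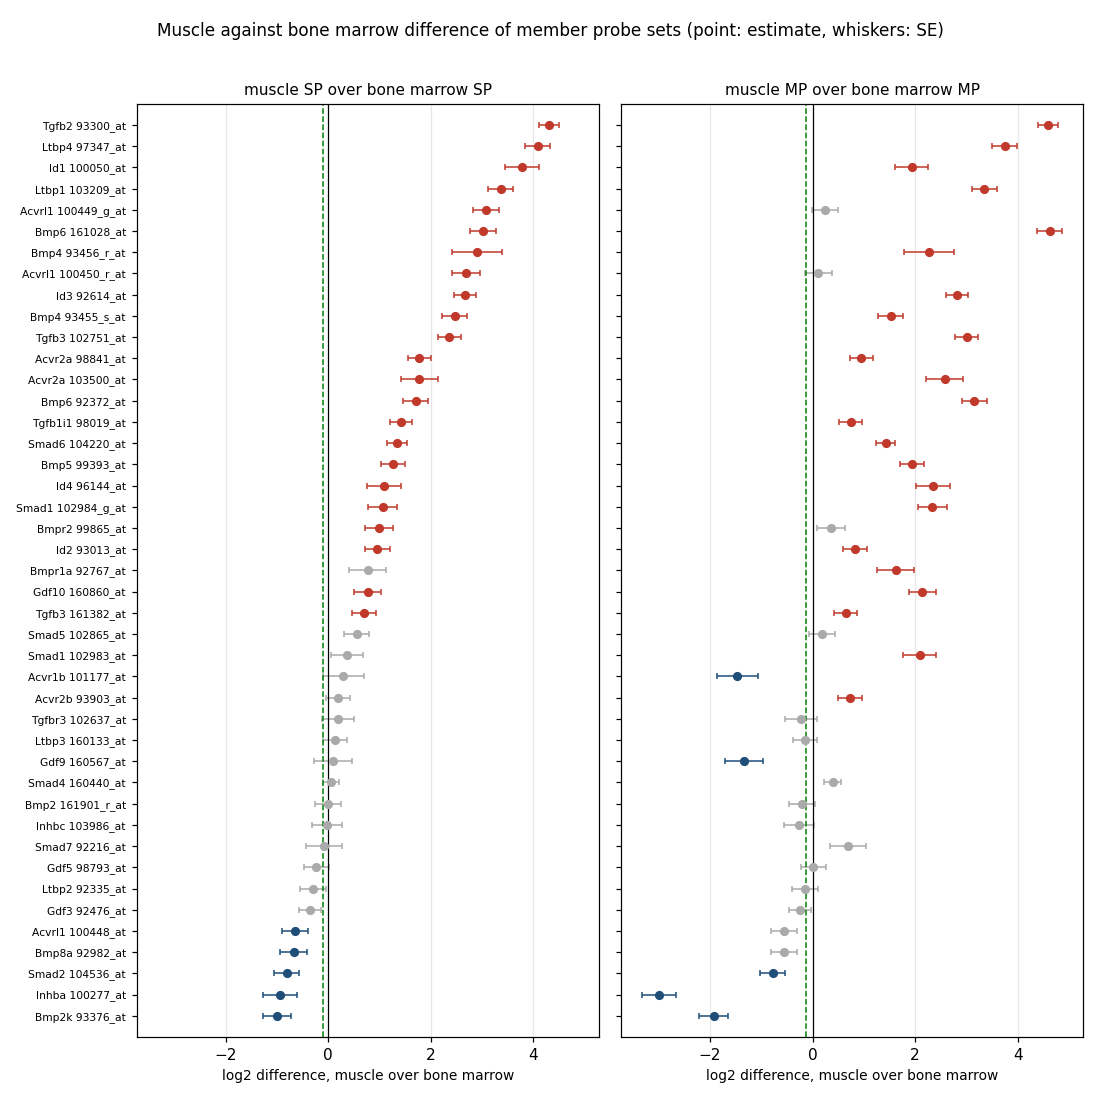
Log2 difference of muscle over bone marrow for the 43 probe sets among SP cells (left) and MP cells (right), with points for the limma estimate and whiskers for its SE (5 arrays a group). Red points were called higher in muscle, blue points lower and grey points were not called, and the green dashed line marks the median of all probe sets tested. Tgfb2, Ltbp4 and Ltbp1 are among the highest on both sides, and Inhba is the lowest among MP cells.

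The SP against MP change differed between the tissues for 10 of the 43 probe sets (23.3%), where 18.5% of all probe sets tested were called. It was more positive in muscle for 5, of Acvrl1, Inhba, Id1 and Acvr1b, against a background of 8.69%. It was more negative in muscle for 5, of Bmp6, Smad1 and Gdf10, against a background of 9.85%. These counts were 4 and 8 without further normalization and 6 and 3 with median scaling. Over all probe sets tested they were 896 and 1016 of 10310 in the fit reported. They were 653 and 1497 of 10340 without further normalization and 1234 and 750 of 10328 with median scaling. The median difference was -0.04 over the 43 and 0.02 over all. Bmp6 was at or near the floor in bone marrow, at 105 to 188 by 161028_at and 105 to 125 by 92372_at. The floor could hide a change of Bmp6 there. Without muscle SP arrays 4 and 5 the calls of Gdf10 (log2 difference -1.01, adjusted p = 0.0578), Acvr1b (1.65, adjusted p = 0.0751) and Smad1 by 102984_g_at (-1.29, adjusted p = 0.0581) were lost, and Bmp5, Bmpr1a and Tgfb3 were gained. The call of Smad1 by 102984_g_at was also lost when muscle SP array 3, muscle MP array 2, bone marrow SP array 5 or bone marrow MP array 4 was left out (log2 differences -1.21 to -1.02, adjusted p 0.0539 to 0.0574).

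Genes that act around these members were taken from 4 further lists, chosen like the members with earlier results of these data known. Of all probe sets tested, 5.1% were higher and 6.64% lower in muscle SP cells, and 15.4% were higher and 14.8% lower in bone marrow SP cells. Between tissues the shares were 17.1% higher and 21.2% lower in muscle among SP cells, and 20.9% and 25.6% among MP cells. The counts of each list stand beside these shares. Of the 17 measured antagonists and extracellular regulators, 1 rose and 1 fell in muscle SP cells and 5 rose and 1 fell in bone marrow SP cells, with median log2 changes of -0.01 and 0.07. Endoglin (Eng), the co-receptor that works with Acvrl1, was 2.08-fold higher (log2 change 1.06 ± 0.22 SE, adjusted p = 0.00239) in muscle SP and 3.68-fold higher (log2 change 1.88 ± 0.22 SE, adjusted p = 9.57e-07) in bone marrow SP than in the matching MP cells. Fkbp1a (FKBP12), which binds the type I receptors inside the cell, was 1.65-fold lower (log2 change -0.72 ± 0.19 SE, adjusted p = 0.0131) in muscle SP cells. In bone marrow Nbl1, a BMP antagonist, was 2.38-fold lower (log2 change -1.25 ± 0.29 SE, adjusted p = 0.00226) in SP cells, and Fstl1 and decorin (Dcn), a TGF-beta binding matrix protein, rose (log2 changes 1.03 and 0.97). Between tissues 8 rose and 1 fell in muscle SP cells and 9 rose and 0 fell in muscle MP cells, led by Dcn and Fstl1, with log2 differences of 6.52 and 4.88 among SP cells and 7.92 and 6.39 among MP cells. Eng is also on the endothelial list and Dcn on the fibroblast list.

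Of 12 measured intracellular regulators of Smads, 1 rose and 0 fell in muscle SP cells and 3 rose and 2 fell in bone marrow SP cells, with median log2 changes of 0.13 and 0.33. The one in muscle was Tgif1, a Smad2 corepressor, 1.57-fold higher (log2 change 0.66 ± 0.21 SE, adjusted p = 0.0463) in SP cells. In bone marrow Ski, a corepressor that binds Smad4, was 4.43-fold higher (log2 change 2.15 ± 0.18 SE, adjusted p = 8.14e-09) in SP cells and the coactivator gene Crebbp was 1.93-fold higher (log2 change 0.95 ± 0.30 SE, adjusted p = 0.0187). The phosphatase gene Ppm1a was 1.76-fold lower (log2 change -0.82 ± 0.22 SE, adjusted p = 0.00736) and the ubiquitin ligase gene Nedd4l was 1.53-fold lower (log2 change -0.61 ± 0.17 SE, adjusted p = 0.00961) in bone marrow SP cells. Between tissues 1 rose and 4 fell in muscle among SP cells, led by Skil (log2 difference -1.12), Nedd4l (1.06) and Strap (-0.98), and 3 rose and 3 fell among MP cells, led by Ski (1.82), Tgif1 (-1.22) and Map3k7 (-1.06). The probe sets of Crebbp, Nedd4l and Skil carry suffixes that mark possible cross-hybridisation.

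Of 20 measured TGF-beta target genes, 5 rose and 5 fell in muscle SP cells, with a median log2 change of -0.02. The cell cycle inhibitor gene Cdkn1a was 3.33-fold higher (log2 change 1.73 ± 0.27 SE, adjusted p = 0.00014) in muscle SP cells. Connective tissue growth factor (Ccn2) was 3.76-fold lower (log2 change -1.91 ± 0.44 SE, adjusted p = 0.00563), periostin (Postn) 3.57-fold lower (log2 change -1.83 ± 0.23 SE, adjusted p = 1.22e-05) and the collagen gene Col3a1 3.27-fold lower (log2 change -1.71 ± 0.26 SE, adjusted p = 0.000129) there. In bone marrow 6 rose and 2 fell, with a median of 0.13. Smooth muscle actin (Acta2) was 9.92-fold lower (log2 change -3.31 ± 0.34 SE, adjusted p = 1.53e-07) in bone marrow SP cells and Tgfbi 3.6-fold lower (log2 change -1.85 ± 0.27 SE, adjusted p = 1.58e-05), while Timp3 was 6.59-fold higher (log2 change 2.72 ± 0.32 SE, adjusted p = 1.15e-06) and Tsc22d1 3.9-fold higher (log2 change 1.96 ± 0.18 SE, adjusted p = 5.2e-08). Postn and the collagens are on the fibroblast list as well, and Acta2 is on the pericyte and smooth muscle list. Between tissues 17 rose and 0 fell in muscle among SP cells and 14 rose and 1 fell among MP cells, led by Col1a2, Acta2 and Col3a1 among SP cells (log2 differences 7.29, 6.88 and 6.03). Among MP cells Col1a2, at the floor on every bone marrow array, was at least 496-fold higher in muscle, and Col3a1 and Timp3 had log2 differences of 8.16 and 7.87.

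Of 10 measured BMP target genes other than the Id and Smad genes, 2 rose and 0 fell in muscle SP cells and 5 rose and 0 fell in bone marrow SP cells, with median log2 changes of -0.01 and 0.88. In muscle these were the transcription factor genes Gata3, 2.18-fold higher (log2 change 1.13 ± 0.21 SE, adjusted p = 0.000902), and Msx1, 2.02-fold higher (log2 change 1.02 ± 0.32 SE, adjusted p = 0.039). In bone marrow they were led by Gata3, 10.6-fold higher (log2 change 3.41 ± 0.21 SE, adjusted p = 8.42e-11), Hey1, 7.47-fold higher (log2 change 2.90 ± 0.37 SE, adjusted p = 3.08e-06), Tal1, 6.58-fold higher (log2 change 2.72 ± 0.28 SE, adjusted p = 1.8e-07), and Gata2, 3.04-fold higher (log2 change 1.60 ± 0.29 SE, adjusted p = 0.000196). Gata2 and Tal1 are also on the blood stem cell marker list, of which 7 of 7 measured genes were higher in bone marrow SP cells. T and NK cell markers moved in the direction of Gata3, 6 of 10 being higher in muscle SP and 8 of 10 in bone marrow SP cells. The part of these markers in the BMP target results was not tested. Between tissues 2 rose and 3 fell in muscle among SP cells, led by Msx1, Hey1 and Tal1 (log2 differences 2.04, 1.32 and -1.24). Among MP cells 7 rose and 0 fell, led by Hey1, Msx1 and Gata3 (4.30, 1.72 and 1.47).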

How the data were processed

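Total RNA of the sorted cells had been hybridised to Affymetrix arrays. The deposited values are signal intensity on a linear scale, which the authors had scaled to a like trimmed mean per array (1501 after rounding). Which software, probe summary and background correction gave them is not given in the sources used here. After leaving out 66 control probe sets, the 20 arrays were quantile normalized, values under the 25th percentile (105 signal, log2 6.71) were raised to it, and a probe set was kept if at least 5 arrays exceeded that floor. Quantile normalization removes overall differences in RNA content, and the floor shortens the folds of dim genes, so a fold against a group wholly at the floor is written as "at least". The number of arrays limits the precision.

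One limma fit (version 3.58.1, R 4.3.3) covered all 4 groups, with two-sided tests and Benjamini-Hochberg adjustment over all 10310 probe sets (threshold 0.05). The script was tested on simulated data. Figures used matplotlib 3.10.9 in Python 3.11.15. Symbols came from the array's probe-to-gene table, and all 49 gene identifiers matched RefSeq on GRCm38.p6 with 0 differing symbols. Probe sets of a gene are given separately.

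The genes, lists and tests were chosen with earlier results of these data known. By rule, every called member, a set of core ligands, receptors, Smads and Id genes whatever their values, and up to 4 called genes of each further list by size of change (up to 3 between tissues) were named. Alternatives were no normalization, median scaling, a pseudocount of 32, a floor at the 10th or the 40th percentile, no filter, trend and robust options, array weights, only the groups compared, a replicate block, the GAPDH ratio as a covariate, leaving out its 3 highest arrays, each array in turn, and muscle SP arrays 4 and 5.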

Additional observations from a re-analysis of the deposited data

Results flagged for a closer look

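Single arrays stood far from the other 4 of their group (a gap above Dixon's critical value for 5 values on the log2 signal) in 19 of 164 groups of arrays tested. For normal values without a floor, chance gives about 1 in 20 groups. In 6 of the 19 the other 4 were all at the floor, where any value above it passes. The count can therefore not be set against that rate. Smad1 on bone marrow SP array 5 was high on both probe sets, at 13258 against 5616 to 6870 on the other 4 by 102983_at and 23143 against 8728 to 10714 by 102984_g_at. Smad2 was high on muscle MP array 1, at 8388 against 4057 to 4616, and on bone marrow SP array 1, at 12336 against 5925 to 6714. Ltbp4 was high on muscle MP array 1, at 8394 against 4150 to 5029. Bone marrow SP array 4 was low for the receptor genes Acvr1b, at 140 against 396 to 519, and Acvr2b, at 587 against 1032 to 1218. Acvr2a by 103500_at was low on muscle SP array 3, at 1082 against 1583 to 1827.

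The remaining such arrays carried dim signals. Tgfb3 by 161382_at was at the floor, 105, on muscle MP array 3 against 177 to 196, and at 126 on bone marrow SP array 5 against 105 to 106. Bmp2 by 161901_r_at was at 203 on muscle MP array 5 against 105 to 120, and Gdf3 by 92476_at was at 219 on bone marrow MP array 1 against 105 to 115. Bmp5 was at 160 on bone marrow SP array 4 against 105 to 118. With the other 4 arrays at the floor, Bmp5 was at 136 on bone marrow MP array 3, Bmp4 by 93456_r_at at 136 on bone marrow SP array 5, and Bmp8a at 140 on muscle MP array 4. Bmp6 by 161028_at was likewise at 188 on bone marrow SP array 1 and at 158 on bone marrow MP array 1, and Bmp6 by 92372_at at 125 on bone marrow SP array 4.

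The SP against MP change differed between muscle and bone marrow, by the test of that difference, for 10 probe sets. It was more positive in muscle for Acvrl1, by 2.84 on 100449_g_at and 2.58 on 100450_r_at (log2), for Inhba by 2.06, for Id1 by 1.85 and for Acvr1b by 1.76. The difference, muscle minus bone marrow, was negative for Smad1, at -1.72 on 102983_at and -1.28 on 102984_g_at, for Bmp6, at -1.61 on 161028_at and -1.45 on 92372_at, and for Gdf10, at -1.38. Bone marrow signal of Bmp6 was at or near the floor on both probe sets, which could hide a change there.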

How the results depend on the processing

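No called change reversed its direction under any alternative. Of the calls, 5 of 9 in muscle SP against MP, 8 of 13 in bone marrow SP against MP, 18 of 28 between tissues among SP cells and 24 of 28 among MP cells held under all 33 alternatives, and 5 of 10 differences between tissues held under all 32 that apply to them. The number of members higher in bone marrow SP cells, 7 in the fit reported, was 11 without further normalization and 4 each under median scaling, a fit of the compared groups alone and the GAPDH ratio as a covariate. The number lower in muscle SP than in bone marrow SP cells, 5 in the fit reported, was 3 with the floor at the 10th percentile and 2 each with no filter, in a fit of the compared groups alone and without muscle SP arrays 4 and 5, an alternative chosen after seeing the data. The number with a more negative change in muscle, 5 in the fit reported, was 8 without normalization and 3 with median scaling. Over all probe sets tested, 1583 were higher in bone marrow SP cells in the fit reported. Without normalization 2894 were, with median scaling 1061, with the compared groups alone 1391 and with the GAPDH covariate 1350. Those lower in muscle SP than in bone marrow SP cells numbered 2186 in the fit reported and 1670 to 2135 under the alternatives named. Changes more negative in muscle numbered 1016, 1497 without normalization and 750 with median scaling. The cause of these shifts was not tested. With each array left out in turn, members higher in muscle SP than in muscle MP cells numbered 3 to 5, with 3 without muscle SP array 3, muscle MP array 2 or muscle MP array 4, and those lower numbered 3 to 6. In bone marrow these counts were 5 to 8 higher and 5 to 7 lower. Between tissues they were 22 to 25 higher and 2 to 5 lower in muscle among SP cells, with 2 without bone marrow SP array 3, and 22 to 25 higher and 5 to 6 lower among MP cells. Differences between tissues numbered 4 to 6 in each direction. Replicate numbers shared by the groups correlated between -0.14 and 0.30 over 30 same-number pairs, 14 of them over 0.1. The arrays numbered 1 correlated at 0.19 to 0.30 in every pair of groups, and what they share was not tested. Since not every pair was over 0.1, the numbers were not taken to pair the samples in the fit reported. In 10 of the 30 pairs the array correlated best with its own number, among 5 it could match. With a replicate block the counts were 5 higher and 6 lower in muscle, 7 higher and 6 lower in bone marrow, 23 higher and 4 lower among SP cells and 24 higher and 5 lower among MP cells, with 1 call lost and 4 gained. Those gained were Smad1 by 102983_at and Bmpr1a, lower in muscle SP cells (log2 changes -0.83 and -1.04, adjusted p = 0.0479 and 0.0489), Smad7, higher in muscle MP than in bone marrow MP cells (0.70, adjusted p = 0.0468), and the difference between tissues of Id4 (-1.26, adjusted p = 0.0283). The one lost was Bmp8a among SP cells (-0.68, adjusted p = 0.0539). Signals at or near the floor limit Bmp2, Gdf3, Gdf5, Ltbp2, Smad5 and Tgfbr3, and the 16 probe sets that failed the filter.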
